A study of Mus musculus with 3 samples.

Results

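The interferon-stimulated genes described here are 35 genes that interferons are known to switch on, picked by symbol from the 32285 genes of single-cell RNA matrices of mouse lung. Of these, 34 have a row, and Mx1, a GTPase that blocks viruses, was not analysed here. They were read in 5 lists: 13 type I-like effectors, 8 type II-like GTPases, 4 transcription factors, 5 genes of the p200 family and 5 surface and small membrane proteins. The mice came in 3 groups, each 1 library pooled from 3 animals of 16 to 20 weeks fed doxycycline chow at 625 ppm. PPARg-/- tumour mice were Ccsp-rtTA;TetO-EGFRL858R;Pparγfl/fl;Csf1rCre, in which the Csf1r promoter drives Cre in monocytes and macrophages. WT tumour mice were Ccsp-rtTA;TetO-EGFRL858R;Pparγfl/fl, without Cre. WT healthy mice were Ccsp-rtTA;TetO-EGFRL858R, without floxed alleles. All groups thus carried the doxycycline-driven mutant EGFR, which the Ccsp promoter directs to lung epithelium. Alveolar macrophages, CD11b-positive macrophages, T cells and epithelium were sorted and mixed in equal parts.

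Type I interferons (interferon-alpha and interferon-beta) are made by almost any cell that senses foreign nucleic acid, and signal through Ifnar1 and Ifnar2 to a complex that holds Stat2 and Irf9. That complex binds the interferon-stimulated response element (ISRE) of genes such as Isg15, the Ifit family and Rsad2. Interferon-gamma, the type II interferon, comes mainly from T cells and natural killer cells and signals through Ifngr1 and Ifngr2 to gamma-activated sites (GAS) in its target genes. The guanylate-binding proteins (Gbp) and immunity-related GTPases (Igtp, Irgm1, Iigp1) attack the vacuoles of intracellular microbes and are known as its strongest targets in mice. The names type I-like and type II-like mark only these best-known inducers, since most genes of both lists answer either interferon.

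The promoters show the same overlap. RefSeq windows (GRCm38.p6, 300 bases around the start site) matched 26 of the 35 genes, some with several start sites, and a gene was counted where any of its windows held the motif. An ISRE core, GAAANNGAAA on either strand, lay in 15 of the 26 genes (57.7%), against 3.99% of 27025 genes. A GAS, TTCNNNGAA, lay in 10 of the 26 genes (38.5%), against 9.55% of 27025 genes. The core was found for 5 of the 10 type I-like genes and for the 5 type II-like GTPases with a window, of which 2 also had a GAS. The second window of Gbp3 held no core. These matches describe letters and not bound sites. Usp18, Rtp4, Gbp4, Gbp8, Iigp1, Ifi204, Ly6e and Ifi27l2a, with Mx1, are named only. The following 6 show the motifs of each list in the 150 bases before the start site, with capitals for an ISRE core or a GAS. The type I-like Isg15 (chr4:156200819-156200968, minus strand), Ifit1 (chr19:34640739-34640888, plus strand) and Rsad2 (chr12:26456453-26456602, minus strand) hold 3, 2 and 1 cores, those of Isg15 overlapping. Each of the type II-like Gbp2 (chr3:142620513-142620662, plus strand), Gbp7 (chr3:142530186-142530335, plus strand) and Igtp (chr11:58199406-58199555, plus strand) holds 1 core. Gbp7 adds 2 GAS and Igtp adds 1.
Isg15: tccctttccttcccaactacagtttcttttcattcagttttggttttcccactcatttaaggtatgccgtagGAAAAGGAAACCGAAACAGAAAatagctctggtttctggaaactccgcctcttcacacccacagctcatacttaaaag
Ifit1: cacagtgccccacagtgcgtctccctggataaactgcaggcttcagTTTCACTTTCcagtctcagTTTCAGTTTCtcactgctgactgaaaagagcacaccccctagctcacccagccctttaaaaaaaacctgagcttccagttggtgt
Rsad2: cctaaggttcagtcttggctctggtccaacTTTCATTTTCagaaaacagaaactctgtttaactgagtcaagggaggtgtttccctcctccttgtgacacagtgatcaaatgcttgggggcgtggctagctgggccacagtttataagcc
Gbp2: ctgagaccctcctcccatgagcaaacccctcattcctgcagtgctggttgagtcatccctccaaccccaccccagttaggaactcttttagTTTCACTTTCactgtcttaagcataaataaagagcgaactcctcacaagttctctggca
Gbp7: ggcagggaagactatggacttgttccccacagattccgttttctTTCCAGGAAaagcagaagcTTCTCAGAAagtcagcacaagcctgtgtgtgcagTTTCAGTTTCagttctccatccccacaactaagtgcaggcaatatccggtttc
Igtp: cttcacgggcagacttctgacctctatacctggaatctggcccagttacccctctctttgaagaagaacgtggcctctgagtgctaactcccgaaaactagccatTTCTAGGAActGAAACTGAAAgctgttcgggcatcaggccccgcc

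The libraries held 44548318 UMIs (PPARg-/- tumour), 46148658 UMIs (WT tumour) and 30454790 UMIs (WT healthy). Of the barcodes that passed the filters, 4986, 4260 and 2872 were kept in the same order after doublets were removed. At most 6 kept barcodes were shared by any 2 libraries. The gene aimed at, Pparg, stood at 376 CPM (UMIs of the gene per 1000000 UMIs of the cells) in the main macrophages of the library labelled PPARg-/-, against 173 CPM in WT tumour, with 196 CPM in WT healthy. The labels do not name the deleted exons, and UMIs outside the deleted part check nothing. The labels say that both sexes were used, whereas the WT healthy library read female (Xist 1236 CPM, Ddx3y 0.133 CPM) and the tumour libraries male (Ddx3y 74.4 CPM in PPARg-/- tumour and 81.6 CPM in WT tumour). Sex and the floxed alleles cannot be told apart from the tumour in any difference between WT tumour and WT healthy.

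Most macrophages of each library formed a cluster made up mainly of that library, so they were compared by cluster and are not 1 cell type. Smaller macrophage clusters were shared, such as the interstitial cluster 6 (58, 196 and 53 cells in PPARg-/- tumour, WT tumour and WT healthy). The largest macrophage clusters held 1154 cells in PPARg-/- tumour (cluster 1), 943 in WT tumour (cluster 8) and 895 in WT healthy (cluster 24), called main macrophages below. The 10 most raised genes of a cluster included Fn1, C1qb and Apoe in cluster 1, Car4 in cluster 8, and Marco and Krt79 in cluster 24. Chil3 was among the 10 in each of these clusters. Ear1, Ear2, Atp6v0d2, Wfdc21 and Ccl6 were among them in both cluster 8 and cluster 24. The 10 alveolar macrophage markers summed to 3018 CPM in the main macrophages of PPARg-/- tumour, against 9665 CPM in WT tumour, with 8808 CPM in WT healthy. The 12 interstitial macrophage markers summed to 19011 CPM in PPARg-/- tumour lungs, against 80.5 CPM in WT tumour, with 61.8 CPM in WT healthy. Of the 19011 CPM, Apoe held 13664 CPM, and C1qa, C1qb and C1qc held 1880, 1929 and 1103 CPM. Cd163, Folr2, Lyve1 and Tmem119 lay between 0.10 and 1.48 CPM in these cells. Of the alveolar markers, Ear1, Ear2, Plet1 and Atp6v0d2 stayed at 606 to 1066 CPM there, and the others lay at 18.3 CPM or less. This difference in the makeup of the clusters lies beside every ratio between main macrophages of the tumour libraries, and its part in them was not tested. Other classes were nonclassical monocytes (1036, 506 and 258 cells in PPARg-/- tumour, WT tumour and WT healthy), classical monocytes (93, 128 and 143), T cells (1617, 1361 and 924) and endothelial cells (385, 245 and 219), the last outside all the sort gates. No group had a replicate, so no test was made. Intervals are 95% and cover counting error only. A gene is called higher or lower where the ratio reached 1.5-fold, its interval left out 1 and both libraries together had at least 20 UMIs.

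Across the lung, classical monocytes and then endothelial cells carried the highest summed type I-like level, apart from 7 AT1-like cells of WT healthy at 485 CPM, and endothelial cells the highest type II-like level. The 12 type I-like effectors with a row summed to 1039 CPM in classical monocytes of PPARg-/- tumour, against 767 CPM in WT tumour, with 976 CPM in WT healthy. In endothelial cells the same sum was 650 CPM in PPARg-/- tumour lungs, against 477 CPM in WT tumour, with 458 CPM in WT healthy. Main macrophages lay at the low end of the classes in every library, with 52.2 CPM in PPARg-/- tumour lungs, against 90.1 CPM in WT tumour, with 23.4 CPM in WT healthy. Free RNA, read from barcodes of 10 to 100 UMIs, held 122, 127 and 146 CPM of the same genes in PPARg-/- tumour, WT tumour and WT healthy, above the level inside the main macrophages of each library. The type II-like GTPases differed less between libraries in these cells, at 190 CPM in PPARg-/- tumour lungs, against 172 CPM in WT tumour, with 157 CPM in WT healthy, beside free RNA of 183, 169 and 196 CPM. Of the UMIs of both lists together, the type I-like share in main macrophages was 21.5% (20.4 to 22.7) in PPARg-/- tumour, 34.4% (32.9 to 36.0) in WT tumour and 12.98% in WT healthy. Classical monocytes leaned the other way, with a type I-like share of 80.6% in PPARg-/- tumour, 78.6% in WT tumour and 69.0% in WT healthy.

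**Figure D1:**
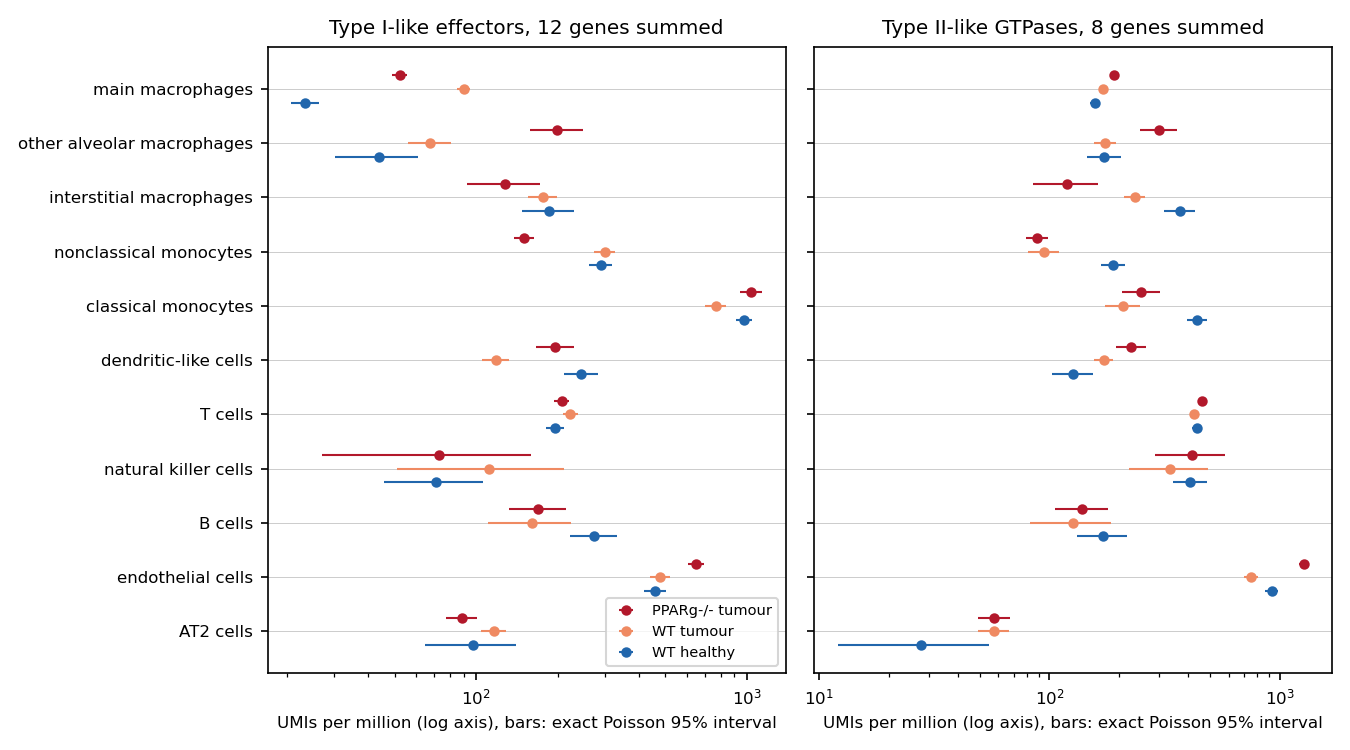
Summed CPM (log axis) of the 12 type I-like effectors and the 8 type II-like GTPases in 11 cell classes, with points for PPARg-/- tumour, WT tumour and WT healthy and bars for the exact Poisson 95% interval. Main macrophages have type I-like points apart (52.2, 90.1 and 23.4 CPM) beside type II-like points that lie close together, and endothelial cells reach 1273 CPM of type II-like GTPases in PPARg-/- tumour.

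The first comparison asked how the genes differ between tumour lungs with and without the Csf1rCre deletion of Pparg. In main macrophages, 33 of the genes reached 20 UMIs over the tumour libraries. Of these, 9 were higher in the library labelled PPARg-/- and 11 lower, where 14.9% of all genes tested were higher and 18.4% lower. The lower genes numbered 6 under a mitochondrial limit of 5% and at 2-fold, 5 with each library clustered alone and 3 after thinning each cell to 1000 UMIs. The shares of all genes were not recomputed under these settings, so these counts have no background. Most type I-like effectors lay on the lower side and the membrane proteins on the higher side. The median log2 ratio of all genes was -0.14, and the values below were not shifted by it.

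The type I-like effectors were lower in 6 of 11 and higher in 1, with a median log2 ratio of -0.61 and a log2 ratio of the sum of -0.79 (-0.91 to -0.67). Isg15, a ubiquitin-like protein joined to other proteins during infection, had 212 UMIs (10.8 CPM) in PPARg-/- tumour lungs, against 297 UMIs (20.5 CPM) in WT tumour, a log2 ratio of -0.92 (-1.18 to -0.66). Ifit1, which binds foreign RNA lacking cap methylation, had 4.34 CPM in PPARg-/- tumour lungs, against 11.7 CPM in WT tumour (-1.44, -1.83 to -1.05). The relatives of Ifit1 were lower by less. Ifit2 had 4.54 CPM in PPARg-/- tumour lungs, against 7.25 CPM in WT tumour, and Ifit3 had 2.55 CPM in PPARg-/- tumour lungs, against 4.62 CPM in WT tumour. Both ratios turned above 0 under a mitochondrial limit of 5%. Rsad2, the antiviral enzyme viperin, had 50 UMIs (2.55 CPM) in PPARg-/- tumour lungs, against 97 UMIs (6.70 CPM) in WT tumour (-1.39, -1.91 to -0.88). The 2 WT tumour cells with most type I-like UMIs held 34 and 21 of those 97 UMIs, and 33 and 31 of the 170 UMIs of Ifit1. The 2 such PPARg-/- cells held 2 and 3 UMIs of Rsad2, and 14 and 3 of Ifit1. The intervals do not cover this unevenness. Rtp4, an interferon-induced zinc-finger protein, had the lowest ratio of the list, at 4.54 CPM in PPARg-/- tumour lungs, against 13.05 CPM in WT tumour (-1.52, -1.90 to -1.15). Usp18, the protease that removes Isg15 and damps Ifnar2 signalling, went the other way, with 68 UMIs (3.47 CPM) in PPARg-/- tumour lungs, against 23 UMIs (1.59 CPM) in WT tumour (1.13, 0.43 to 1.88). Oasl2, Oas1a, Xaf1 and Isg20 did not pass the rule, with log2 ratios from -0.56 to 0.13, and Ifi44 had 6 UMIs in PPARg-/- tumour and 0 in WT tumour.

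The direction of this list depended on which PPARg-/- cells were read. The 78 PPARg-/- cells that fell into cluster 8, the cluster of the WT tumour main macrophages, had 133 type I-like UMIs (137 CPM), against 1305 UMIs (90.1 CPM) in the 943 WT tumour cells there, a log2 ratio of 0.61 (0.34 to 0.87). In cluster 8, 8 of 31 genes were higher in PPARg-/- tumour and 1 lower, where 5.7% of all genes tested were higher and 3.87% lower. The 8 were Isg15, Rtp4, Gbp8, Iigp1, Irf7, Ifi204, Ifitm3 and Ly6e, and the lower one was Ifi202b. Iigp1 differed most, with 37 UMIs (38.2 CPM) in those PPARg-/- cells, against 41 UMIs (2.83 CPM) in the WT tumour cells. How the UMIs of these genes spread over the 78 cells is not given here, and the intervals do not cover it. This setting was added after the data were seen. In the other settings, the sum stayed lower in PPARg-/- tumour. The sum missed the 1.5-fold rule over all macrophage and monocyte clusters (-0.57) and after thinning of the main macrophages (-0.55). It also missed the rule under a mitochondrial limit of 5% (-0.47), with 471 PPARg-/- and 229 WT tumour main macrophages. With each library clustered alone it did so too (-0.52), with 513 and 509 cells in the same order.

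The type II-like GTPases differed little between the tumour libraries, with 2 of 8 higher, none lower and a log2 ratio of the sum of 0.15 (0.08 to 0.22). Gbp7, the GTPase with the most UMIs, had 81.8 CPM in PPARg-/- tumour lungs, against 82.6 CPM in WT tumour. Gbp2 had 31.2 CPM in PPARg-/- tumour lungs, against 35.9 CPM in WT tumour, and Igtp had 11.9 CPM in PPARg-/- tumour lungs, against 10.0 CPM in WT tumour. Both higher GTPases stood apart from these. Gbp8 had 444 UMIs (22.7 CPM) in PPARg-/- tumour lungs, against 126 UMIs (8.70 CPM) in WT tumour (1.38, 1.09 to 1.68). Iigp1, which coats the vacuoles of Toxoplasma, had 4.75 CPM in PPARg-/- tumour lungs, against 2.83 CPM in WT tumour (0.75, 0.20 to 1.31). The ratio of Iigp1 turned below 0 with a minimum of 2000 UMIs per barcode (-0.64) and at a finer clustering (-0.72). The main macrophages of those settings held 671 and 614 PPARg-/- cells in place of 1154. In WT tumour they held 940 and 871 cells in place of 943.

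Of the transcription factors, Stat2, the STAT peculiar to the type I and type III receptors, had 23.8 CPM in PPARg-/- tumour lungs, against 53.0 CPM in WT tumour (-1.15, -1.32 to -0.99). Irf1, an early interferon-gamma target that switches on Gbp genes, had 18.1 CPM in PPARg-/- tumour lungs, against 28.1 CPM in WT tumour (-0.64, -0.85 to -0.43). Irf7, the factor that amplifies interferon-alpha production, and Irf9, the DNA-binding partner of Stat2, did not pass the rule, with log2 ratios of -0.44 and -0.18.

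The p200 genes, which encode DNA-sensing and chromatin-bound proteins of the nucleus, split in both directions. Reads of this family, as of the Gbp and Oas families, could be divided between near-identical copies, and how the authors' counting treated them is not stated in the labels or headers. Ifi202b had 0 UMIs in PPARg-/- tumour lungs, against 143 UMIs (9.87 CPM) in WT tumour, at least 64.5-fold lower at a floor of 3 counts for the library. Ifi207 had 64.6 CPM in PPARg-/- tumour lungs, against 100 CPM in WT tumour (-0.64, -0.75 to -0.53). Ifi206 and Ifi209 were the higher ones, with 25 UMIs of Ifi206 in PPARg-/- tumour lungs, against 3 in WT tumour (ratio 6.16, log2 interval 0.91 to 4.99), and 12.1 CPM of Ifi209 in PPARg-/- tumour lungs, against 6.76 CPM in WT tumour. Ifi204 did not pass the rule, with 54.0 CPM in PPARg-/- tumour lungs, against 45.6 CPM in WT tumour.

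The surface and small membrane proteins held the highest UMI counts of all 5 lists, and 4 of 5 were higher in PPARg-/- tumour. Ly6e, a GPI-anchored protein that restricts coronavirus entry, had 1001 CPM in PPARg-/- tumour lungs, against 318 CPM in WT tumour (1.65, 1.61 to 1.70). Bst2 (tetherin), which holds budding virus at the cell surface, had 116 CPM in PPARg-/- tumour lungs, against 70.1 CPM in WT tumour (0.73, 0.62 to 0.84). Ifitm3, which blocks virus fusion in endosomes, had 25.9 CPM in PPARg-/- tumour lungs, against 8.01 CPM in WT tumour (1.70, 1.40 to 2.00). Ifitm6 followed its relative at a low level, with 3.78 CPM in PPARg-/- tumour lungs, against 0.69 CPM in WT tumour. Ifi27l2a, a small mitochondrial protein, was the lower one, with 44.8 CPM in PPARg-/- tumour lungs, against 130 CPM in WT tumour (-1.54, -1.66 to -1.43). Free RNA held 1122 CPM of Ly6e in PPARg-/- tumour and 590 CPM in WT tumour, and its part in the Ly6e ratio was not tested.

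**Figure D2:**
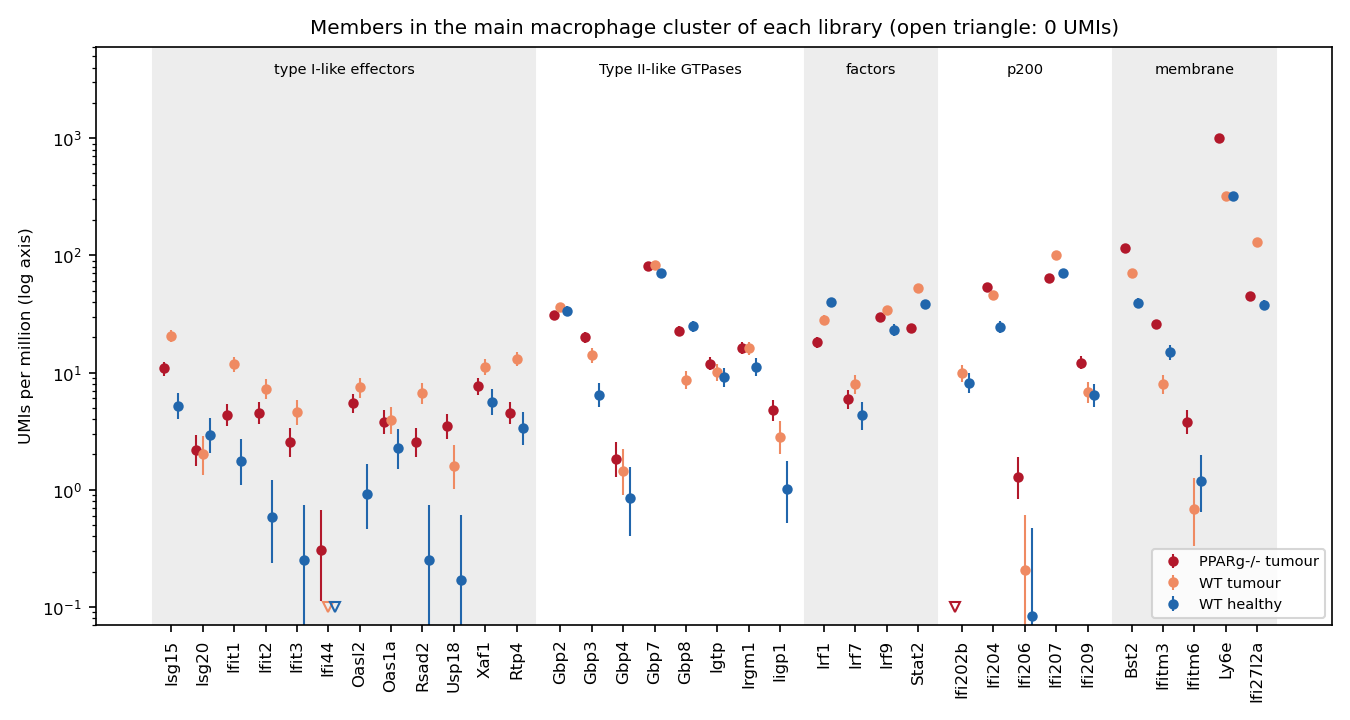
CPM (log axis) of the 34 genes with a row in the main macrophages of PPARg-/- tumour, WT tumour and WT healthy, ordered by list, with exact Poisson 95% intervals and open triangles for 0 UMIs. Most type I-like effectors are highest in WT tumour and lowest in WT healthy, while Gbp2, Gbp7 and Igtp nearly coincide and Ly6e is apart in PPARg-/- tumour at 1001 CPM.

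The second comparison asked how the genes differ between tumour-bearing and healthy lungs with Pparg intact. It shares the WT tumour library with the first. In main macrophages, 16 of 32 genes were higher in WT tumour and 2 lower, where 7.39% of all genes tested were higher and 15.6% lower. The median over the 32 was 0.79, and that over all genes was -0.16. The type I-like effectors made up most of the higher calls, with 10 of 11 higher and none lower, a median log2 ratio of 2.73 and a log2 ratio of the sum of 1.94 (1.76 to 2.14).

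Rsad2 had 97 UMIs (6.70 CPM) in WT tumour lungs, against 3 UMIs (0.253 CPM) in WT healthy (4.73, 3.14 to 7.03). Ifit3 had 67 UMIs in WT tumour lungs, against 3 UMIs in WT healthy (4.19, 2.58 to 6.51). Ifit2 had 105 UMIs in WT tumour lungs, against 7 UMIs in WT healthy (3.62, 2.53 to 4.97). These Ifit and Rsad2 ratios rested on few WT healthy UMIs, and their intervals are wide. Ifit1 had 170 UMIs (11.7 CPM) in WT tumour lungs, against 21 UMIs (1.77 CPM) in WT healthy (2.73, 2.07 to 3.46). The 2 WT tumour cells with most type I-like UMIs held 33 and 31 of these 170 UMIs, and 34 and 21 of the 97 UMIs of Rsad2. The 2 such WT healthy cells held 7 and 3 of the 21 UMIs of Ifit1. Isg15 had 297 UMIs (20.5 CPM) in WT tumour lungs, against 62 UMIs (5.22 CPM) in WT healthy (1.97, 1.57 to 2.39). Oasl2, a relative of the enzymes that make RNase L activators, had 7.46 CPM in WT tumour lungs, against 0.927 CPM in WT healthy (3.01, 2.11 to 4.05). Usp18, Rtp4, Xaf1 and Oas1a were higher too, with log2 ratios from 0.79 to 3.24, and Isg20, an exonuclease, did not pass the rule (-0.56, -1.32 to 0.19). Free RNA held 30.5 CPM of Isg15 in WT tumour and 24.7 CPM in WT healthy, so that the level inside the cells was under that of free RNA in both libraries. Taken over all macrophage and monocyte clusters, the ratio of the sum was 0.30, with 5 of the genes higher and 7 lower. Under a mitochondrial limit of 5%, 10 genes were higher, and after thinning to 1000 UMIs per cell 2 were. For these counts and those over all macrophage and monocyte clusters, the shares of all genes were not recomputed.

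The GTPases did not follow the effectors as a list, with 2 higher, 1 lower and a log2 ratio of the sum of 0.13 (0.04 to 0.22). Gbp3 had 14.0 CPM in WT tumour lungs, against 6.49 CPM in WT healthy (1.11, 0.73 to 1.51), and Iigp1 had 2.83 CPM in WT tumour lungs, against 1.01 CPM in WT healthy (1.49, 0.53 to 2.55). Gbp8 was the lower one, with 8.70 CPM in WT tumour lungs, against 24.8 CPM in WT healthy (-1.51, -1.82 to -1.20). Gbp2, Gbp4, Gbp7, Igtp and Irgm1 did not pass the rule, with log2 ratios from 0.11 to 0.78. Among the other lists, Irf7 was higher (8.01 CPM in WT tumour lungs, against 4.30 CPM in WT healthy), as was Ifi204 (45.6 CPM in WT tumour lungs, against 24.3 CPM in WT healthy). Ifi27l2a had 130 CPM in WT tumour lungs, against 37.7 CPM in WT healthy (1.79, 1.64 to 1.94), and Bst2 had 70.1 CPM in WT tumour lungs, against 39.3 CPM in WT healthy (0.84, 0.68 to 1.0). Ifitm3 was lower, with 116 UMIs in WT tumour lungs, against 177 UMIs in WT healthy (-0.90, -1.25 to -0.55). Of those 177 UMIs, 68 lay in 1 cell, and with each library clustered alone the ratio was 0.11. Ly6e differed by little, at 318 CPM in WT tumour lungs, against 324 CPM in WT healthy.

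Few cells held most of the type I-like signal in main macrophages. In PPARg-/- tumour, 35 of 1154 cells (3.03%) held 50% of the type I-like UMIs, and the highest cell had 73 of 1023. In WT tumour, 28 of 943 cells (2.97%) did, and the highest cell had 134 of 1305. In WT healthy, 44 of 895 cells (4.92%) did, and the highest cell had 12 of 278. The type II-like UMIs were spread over more cells, with 50% held by 17.0% of cells in PPARg-/- tumour, 18.3% in WT tumour and 17.5% in WT healthy. For all UMIs the shares were 38.0% in PPARg-/- tumour, 38.4% in WT tumour and 37.7% in WT healthy. A list with fewer UMIs also occupies fewer cells. Thinned to 1000 UMIs per cell, which left 54, 67 and 25 type I-like UMIs in PPARg-/- tumour, WT tumour and WT healthy, 50% of the type I-like UMIs lay in 15 cells in PPARg-/- tumour, 22 in WT tumour and 8 in WT healthy.

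The highest cells of the tumour libraries carried many effectors at once, which ranking them by the UMIs of this list favours. In WT healthy, the 2 highest cells had 12 type I-like UMIs each, with 3 and 7 effectors. The highest WT tumour cell had 26304 UMIs in all and 11 of the 12 effectors, with 34 UMIs of Rsad2, 33 of Ifit1, 20 of Isg15, 18 of Ifit2 and 15 of Ifit3. The highest PPARg-/- cell had 15927 UMIs in all and 10 effectors, with 26 UMIs of Isg15 and 14 of Ifit1. Cells with at least 3 effectors numbered 44 of 1154 in PPARg-/- tumour (3.81%, 2.78 to 5.08), 75 of 943 in WT tumour (7.95%, 6.31 to 9.87) and 7 of 895 in WT healthy (0.782%, 0.315 to 1.60). These cells held 53.1% of the type I-like UMIs in PPARg-/- tumour, 65.7% in WT tumour and 18.7% in WT healthy. Median depth was 16467 UMIs per cell in PPARg-/- tumour, 14894 in WT tumour and 12841 in WT healthy, and after thinning the cells with at least 3 effectors were 3, 1 and 0 in that order. The exact interval of 0 among 895 cells reaches 0.411%. At that depth a difference between libraries was not detectable.

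The main macrophages with type I-like signal also had more of the 4 other lists in both tumour libraries. The 5 main macrophages of PPARg-/- tumour with at least 2 effectors after thinning had 650 CPM of type II-like GTPases, against 189 CPM in the other 1149 cells. The 6 such cells of WT tumour had 617 CPM, against 168 CPM in the other 937 cells. The p200 list stood out in the same cells, at 1011 CPM in the 5 PPARg-/- cells, against 129 CPM in the others, and at 965 CPM in the 6 WT tumour cells, against 156 CPM in the others. The transcription factors stood at 664 CPM in the 5 PPARg-/- cells, against 75.6 CPM in the others, and at 374 CPM in the 6 WT tumour cells, against 121 CPM in the others. The membrane proteins differed less, at 2701 CPM in the 5 PPARg-/- cells, against 1187 CPM in the others, and at 1008 CPM in the 6 WT tumour cells, against 524 CPM in the others. WT healthy had fewer than 5 such main macrophages and was not read. Nonclassical monocytes did not show this for the GTPases in every library. The 13 such cells of WT tumour had 70.3 CPM of type II-like GTPases, against 95.2 CPM in the others (log2 interval -2.73 to 1.14). In WT healthy the values were 263 and 187 CPM (log2 interval -0.97 to 1.63). In PPARg-/- tumour they were 485 and 85.0 CPM.

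**Figure D3:**
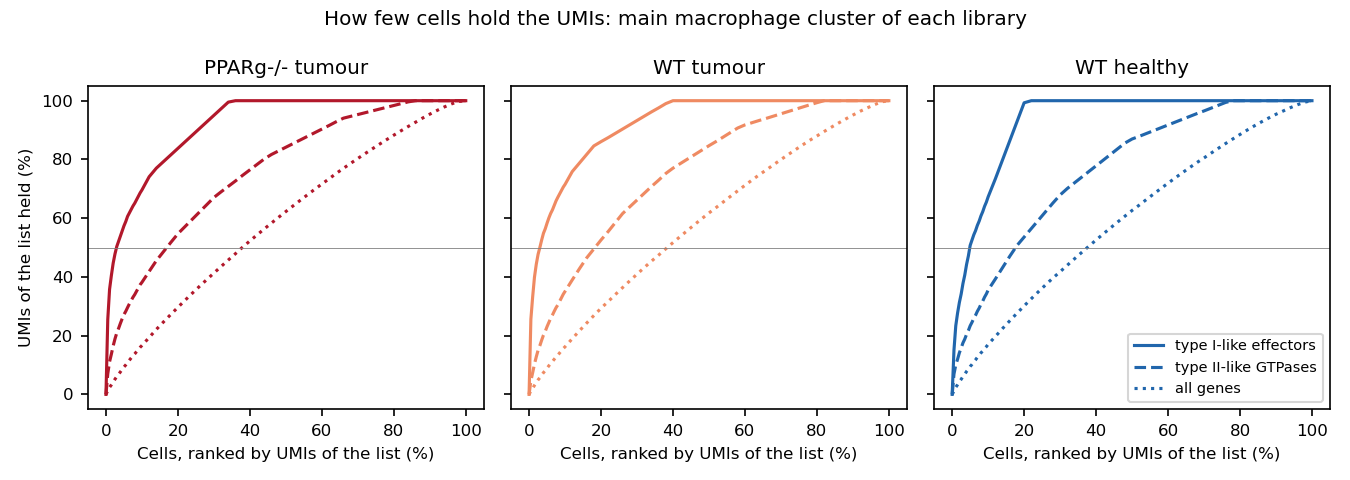
Share of a list's UMIs (y axis, percent) held by the cells with most of them (x axis, percent of main macrophages ranked by UMIs of the list), for PPARg-/- tumour, WT tumour and WT healthy, with a solid line for type I-like effectors, dashes for type II-like GTPases and dots for all genes. The solid lines cross 50% at 3.03%, 2.97% and 4.92% of cells in the order of the panels, the dashed ones at 17.0%, 18.3% and 17.5%.

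In nonclassical monocytes, patrolling cells of the vessel wall that formed 1 cluster in all libraries, 1 of 30 genes was higher in the library labelled PPARg-/- and 9 lower, where 4.51% of all genes tested were higher and 4.57% lower. The type I-like sum was 560 UMIs (150 CPM) in PPARg-/- tumour lungs, against 503 UMIs (299 CPM) in WT tumour (-0.99, -1.17 to -0.82). A single WT tumour cell weighed on it. That cell, of 4963 UMIs in all, held 146 of the 503 type I-like UMIs, including 72 of 101 UMIs of Rsad2, 34 of 44 of Ifit2, 22 of 28 of Ifit1 and 11 of 23 of Ifit3. It also held all 26 UMIs of Ifnb1, the gene of interferon-beta, in the WT tumour library. Without the cell with most UMIs of the list in each library the ratio of the sum was -0.53, which misses the 1.5-fold rule. The lower genes numbered 4 with interferon genes allowed in the clustering, after thinning and without the 10 highest cells, and 5 at a minimum of 50 UMIs. The shares of all genes were not recomputed there.

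The lower genes were Ifit1, Ifit2, Ifit3, Rsad2, Usp18, Rtp4, Gbp7, Ifi202b and Bst2. Ifit2 had 2 UMIs in PPARg-/- tumour lungs, against 44 UMIs in WT tumour (-5.61, -8.70 to -3.67), and Rsad2 had 41 UMIs in PPARg-/- tumour lungs, against 101 in WT tumour (-2.45, -3.01 to -1.91). Rtp4 rested less on that 1 cell, which held 2 of its 64 WT tumour UMIs, and had 19.8 CPM in PPARg-/- tumour lungs, against 38.1 CPM in WT tumour. Ifit1 had 16 UMIs in PPARg-/- tumour lungs, against 28 in WT tumour, and Ifit3 had 12 UMIs in PPARg-/- tumour lungs, against 23 in WT tumour. These genes rest on few UMIs in both libraries. Usp18 had 4.29 CPM in PPARg-/- tumour lungs, against 9.51 CPM in WT tumour (-1.15, -2.24 to -0.05), and Gbp7 had 11.3 CPM in PPARg-/- tumour lungs, against 19.0 CPM in WT tumour (-0.76, -1.45 to -0.05). Bst2 had 38.4 CPM in PPARg-/- tumour lungs, against 62.4 CPM in WT tumour (-0.70, -1.08 to -0.33). Gbp2 was the higher one, with 28.7 CPM in PPARg-/- tumour lungs, against 16.1 CPM in WT tumour (0.84, 0.22 to 1.5). The type II-like sum was 88.5 CPM in PPARg-/- tumour lungs, against 94.6 CPM in WT tumour, which does not pass the rule. Ifitm3 and Ifitm6, which lead this cluster, had 3365 and 758 CPM in PPARg-/- tumour lungs, against 2981 and 623 CPM in WT tumour. Neither passed the rule, nor did Ly6e, at 2148 CPM in PPARg-/- tumour lungs, against 1954 CPM in WT tumour. Irf1 (85.8 CPM in PPARg-/- tumour lungs, against 95.1 CPM in WT tumour), Irf7, Irf9 and Ifi204 (157 CPM in PPARg-/- tumour lungs, against 174 CPM in WT tumour) did not pass it either.

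Between WT tumour and WT healthy, 3 of 31 genes were higher in nonclassical monocytes and 6 lower, where 4.62% of all genes tested were higher and 6.19% lower. The higher genes were Ifit1, Ifit2 and Rsad2, with log2 ratios of 1.77, 1.77 and 0.84, and without the cell with most UMIs of each gene in each library none of the genes tested was higher. The sum of the effectors did not differ by the rule (0.05, -0.14 to 0.24). The GTPases did, with 159 UMIs (94.6 CPM) in WT tumour lungs, against 270 UMIs (188 CPM) in WT healthy (-1.0, -1.29 to -0.71). Gbp2 had 16.1 CPM in WT tumour lungs, against 69.1 CPM in WT healthy (-2.11, -2.78 to -1.48), where 1 WT healthy cell held 32 of 99 UMIs. Irgm1 had 22.0 CPM in WT tumour lungs, against 42.6 CPM in WT healthy (-0.95, -1.58 to -0.34), and Gbp3 had 11.3 CPM in WT tumour lungs, against 21.6 CPM in WT healthy (-0.94, -1.84 to -0.07). Oasl2 and Ifi202b were lower as well, with log2 ratios of -0.59 and -0.97, and Ifi27l2a had 781 CPM in WT tumour lungs, against 1416 CPM in WT healthy (-0.86, -0.96 to -0.76).

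Classical monocytes, blood-derived precursors of some lung macrophages, had the highest type I-like level of these classes. In the library labelled PPARg-/-, 5 of 30 genes were higher and 1 lower than in WT tumour, where 4.54% of all genes tested were higher and 3.53% lower. The higher genes were Isg20, Oasl2, Rtp4, Ifi206 and Ifi207. Rtp4 had 61 UMIs (136 CPM) in PPARg-/- tumour lungs, against 44 UMIs (66.5 CPM) in WT tumour (1.04, 0.45 to 1.63), so that its ratio had the opposite sign to that in main macrophages and nonclassical monocytes. Whether the ratios differ between classes was not tested. Oasl2 had 228 CPM in PPARg-/- tumour lungs, against 142 CPM in WT tumour (0.68, 0.26 to 1.10). Of the genes with the most UMIs here, Ifitm3 had 4866 CPM in PPARg-/- tumour lungs, against 4406 CPM in WT tumour, and Irf7 had 268 CPM in PPARg-/- tumour lungs, against 210 CPM in WT tumour, neither past the rule. Between WT tumour and WT healthy, none of 30 was higher and 9 were lower, where 4.43% of all genes tested were higher and 5.15% lower. These were Isg15, Isg20, Rtp4, Gbp2, Gbp3, Irgm1, Stat2, Ifi202b and Ifi207. Isg15 had 128 CPM in WT tumour lungs, against 209 CPM in WT healthy (-0.70, -1.09 to -0.32), and Gbp2 had 40.8 CPM in WT tumour lungs, against 157 CPM in WT healthy (-1.94, -2.59 to -1.34). Of the 146 UMIs of Gbp2 in WT healthy, 53 lay in 1 cell. The type II-like sum was 208 CPM in WT tumour lungs, against 439 CPM in WT healthy (-1.07, -1.36 to -0.79). Type I-like UMIs were spread over more cells here than in main macrophages, with 50% of them in 11.8% of the cells of PPARg-/- tumour, 9.38% of WT tumour and 11.9% of WT healthy. Each cell also held more of them. In PPARg-/- tumour, 93 classical monocytes had 465 type I-like UMIs, against 1023 in 1154 main macrophages. How far the spread follows from that level was not tested.

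In T cells, the summed level of each list differed little between the tumour libraries. In the library labelled PPARg-/-, 1 of 31 genes was higher and 4 lower than in WT tumour, where 1.77% of all genes tested were higher and 4.92% lower. The largest T cell cluster was cluster 3 in PPARg-/- tumour, cluster 4 in WT tumour and cluster 5 in WT healthy. The type I-like sum was 207 CPM in PPARg-/- tumour lungs, against 223 CPM in WT tumour, and the type II-like sum was 461 CPM in PPARg-/- tumour lungs, against 426 CPM in WT tumour. Gbp8 was the higher gene, with 247 UMIs (54.3 CPM) in PPARg-/- tumour lungs, against 73 UMIs (16.5 CPM) in WT tumour (1.72, 1.34 to 2.12). Rsad2, Usp18, Ifi204 and Ifitm3 were lower. Rsad2 had 24 UMIs in PPARg-/- tumour lungs, against 46 in WT tumour (-0.98, -1.75 to -0.23), and Usp18 had 63 UMIs in PPARg-/- tumour lungs, against 94 in WT tumour (-0.61, -1.10 to -0.14). The other GTPases of T cells lay close between the libraries. Gbp4 had 98.7 CPM in PPARg-/- tumour lungs, against 97.2 CPM in WT tumour, with 82.0 CPM in WT healthy, and Igtp had 67.9 CPM in PPARg-/- tumour lungs, against 75.1 CPM in WT tumour, with 79.0 CPM in WT healthy. Ly6e, at 605 CPM in PPARg-/- tumour lungs, against 633 CPM in WT tumour, showed no such difference as in main macrophages, and whether the ratios differ was not tested. Ifitm3 had 19.1 CPM in PPARg-/- tumour lungs, against 30.9 CPM in WT tumour, beside free RNA of 402 CPM in PPARg-/- tumour and 296 CPM in WT tumour, and Ifi204 had 6 UMIs in PPARg-/- tumour lungs, against 28 in WT tumour. Between WT tumour and WT healthy, 7 of 31 genes were higher and 1 lower, where 7.59% of all genes tested were higher and 4.36% lower. The higher genes were Ifit1, Ifit3, Rsad2, Gbp3, Ifi204, Ifitm3 and Ifitm6, and the lower one was Gbp8. Ifit1 had 26.8 CPM in WT tumour lungs, against 17.0 CPM in WT healthy (0.66, 0.21 to 1.12), and Ifit3 had 23.2 CPM in WT tumour lungs, against 13.8 CPM in WT healthy (0.75, 0.25 to 1.26). Rsad2 had 46 UMIs in WT tumour lungs, against 17 in WT healthy, and Ifitm6 had 18 UMIs in WT tumour lungs, against 2 in WT healthy. Ifitm3 (30.9 CPM in WT tumour lungs, against 13.04 CPM in WT healthy) had 23 of its 137 WT tumour UMIs in 1 cell. In T cells, too, both lists were read in the same cells. The 39 T cells of PPARg-/- tumour with at least 2 effectors after thinning had 1622 CPM of type II-like GTPases, against 434 CPM in the other 1578. The 35 of WT tumour had 2322 CPM, against 383 CPM in the others, and the 16 of WT healthy had 1270 CPM, against 423 CPM in the others.

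Endothelial cells had the highest type II-like level, with 1273 CPM in PPARg-/- tumour lungs, against 753 CPM in WT tumour (0.76, 0.64 to 0.88). In the library labelled PPARg-/-, 9 of 29 genes were higher and 1 lower than in WT tumour, where 4.4% of all genes tested were higher and 3.55% lower. The higher genes were Ifit2, Ifit3, Rsad2, Gbp2, Gbp3, Gbp7, Irgm1, Iigp1 and Ifi206, and the lower one was Ifi204. Iigp1 had 518 UMIs (381 CPM) in PPARg-/- tumour lungs, against 203 UMIs (181 CPM) in WT tumour (1.08, 0.84 to 1.32). Gbp7 had 342 CPM in PPARg-/- tumour lungs, against 212 CPM in WT tumour (0.69, 0.46 to 0.92), and Gbp3 had 79.5 CPM in PPARg-/- tumour lungs, against 37.4 CPM in WT tumour (1.09, 0.56 to 1.64). One PPARg-/- cell of 6818 UMIs held 168 of the 882 type I-like UMIs and 110 of the 1729 type II-like UMIs, including 40 of 66 UMIs of Rsad2 and 23 of 41 of Ifit2. Isg15 (110 CPM in PPARg-/- tumour lungs, against 76.7 CPM in WT tumour), Gbp4 and Irf1 did not pass the rule, nor did Ly6e, at 2541 CPM in PPARg-/- tumour lungs, against 2630 CPM in WT tumour. Between WT tumour and WT healthy, 1 of 28 genes was higher and 2 lower, where 6.03% of all genes tested were higher and 6.72% lower. Rsad2 was the higher one (25.9 CPM in WT tumour lungs, against 10.8 CPM in WT healthy), and Gbp2 and Ifi204 were the lower ones.

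**Figure D4:**
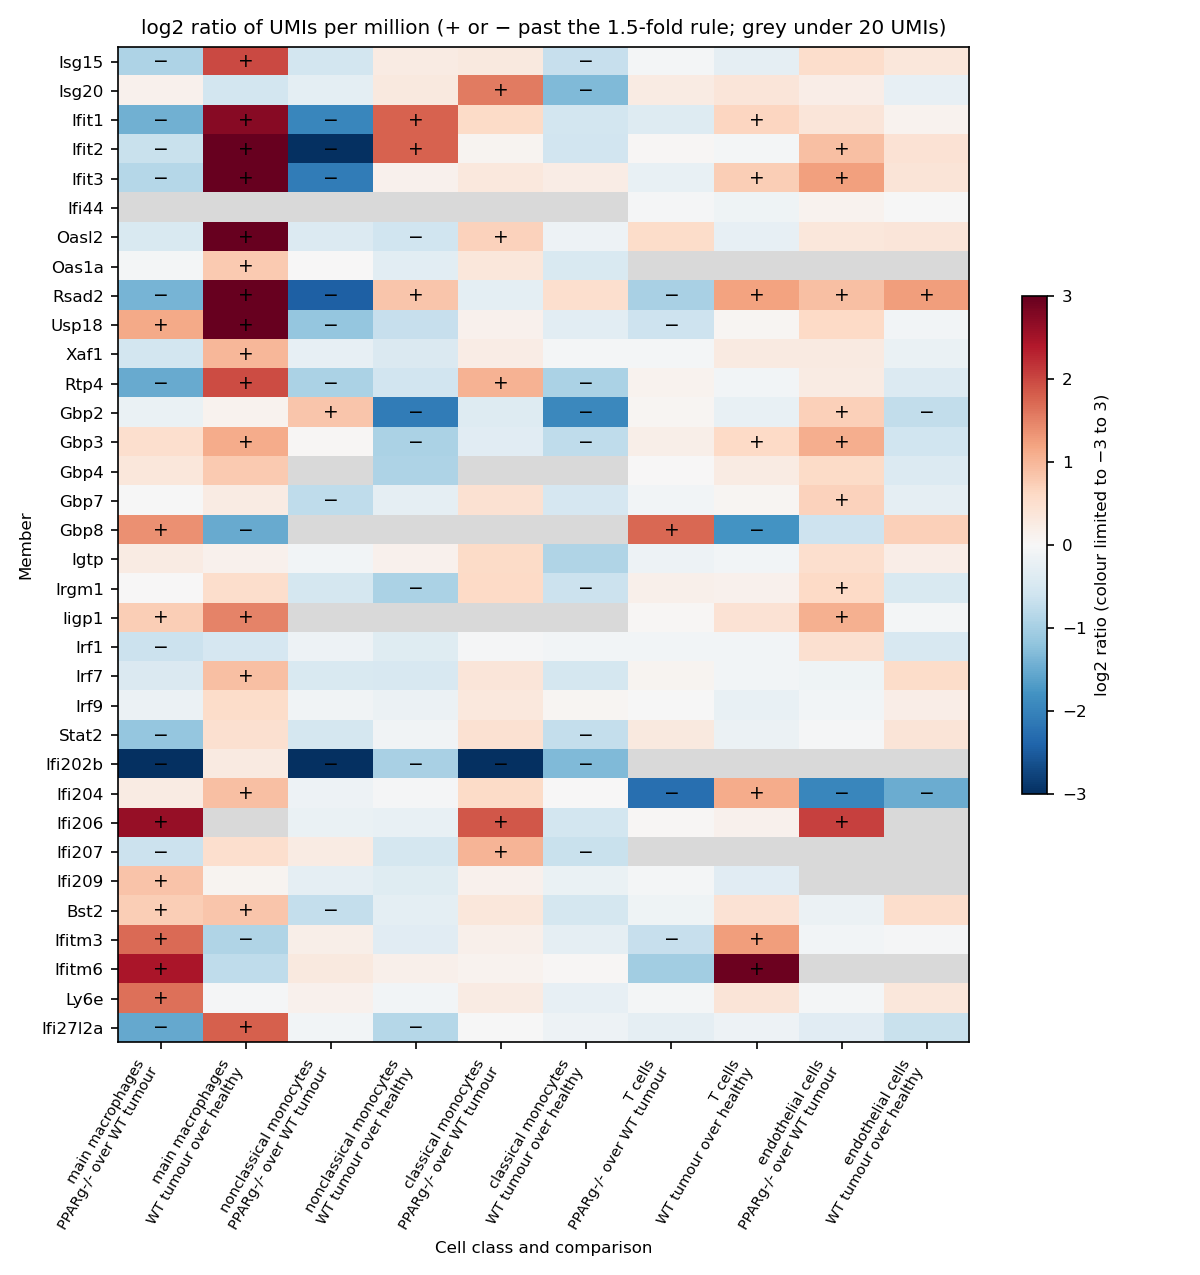
Colours give the log2 ratio of CPM for each of the 34 genes (rows) in 5 cell classes under the 2 comparisons (columns), with + or − where the 1.5-fold rule is passed and grey under 20 UMIs over both libraries. Of the type I-like rows at the top, 6 carry a minus sign in main macrophages for PPARg-/- tumour over WT tumour and Usp18 a plus sign, and 10 carry a plus sign in main macrophages for WT tumour over WT healthy, where Isg20 is blue, and the Ifi202b row is dark blue in the 3 myeloid columns for PPARg-/- tumour over WT tumour.

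Ifi202b and Gbp8 differed between libraries in more than 1 lineage. Ifi202b had 0 UMIs over all 12 classes of PPARg-/- tumour, against 379 UMIs in WT tumour, with 499 UMIs in WT healthy. Free RNA also held none in PPARg-/- tumour lungs, against 11.6 CPM in WT tumour, with 17.8 CPM in WT healthy. Its level was highest in classical monocytes, at 0 UMIs in PPARg-/- tumour lungs, against 81.6 CPM in WT tumour, with 205 CPM in WT healthy, and was at least 12.2-fold lower in PPARg-/- tumour than in WT tumour at the floor of 3 counts. Nonclassical monocytes had 0 UMIs in PPARg-/- tumour lungs, against 35.7 CPM in WT tumour, at least 44.3-fold lower by the same floor, with 69.8 CPM in WT healthy. Dendritic-like cells showed the same order, with 0 UMIs in PPARg-/- tumour, 19.9 CPM in WT tumour and 76.6 CPM in WT healthy. The labels name no mouse strain. Gbp8 was instead low in WT tumour and alike in the other libraries. Natural killer cells had 97.7 CPM of Gbp8 (8 UMIs) in PPARg-/- tumour lungs, against 12.4 CPM (1 UMI) in WT tumour, with 77.2 CPM (26 UMIs) in WT healthy. Endothelial cells did not show it, with 16.9 CPM of Gbp8 in PPARg-/- tumour lungs, against 25.9 CPM in WT tumour, with 15.8 CPM in WT healthy. Free RNA followed the order of the T cells, at 19.0 CPM of Gbp8 in PPARg-/- tumour lungs, against 12.5 CPM in WT tumour, with 22.7 CPM in WT healthy.

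**Figure D5:**
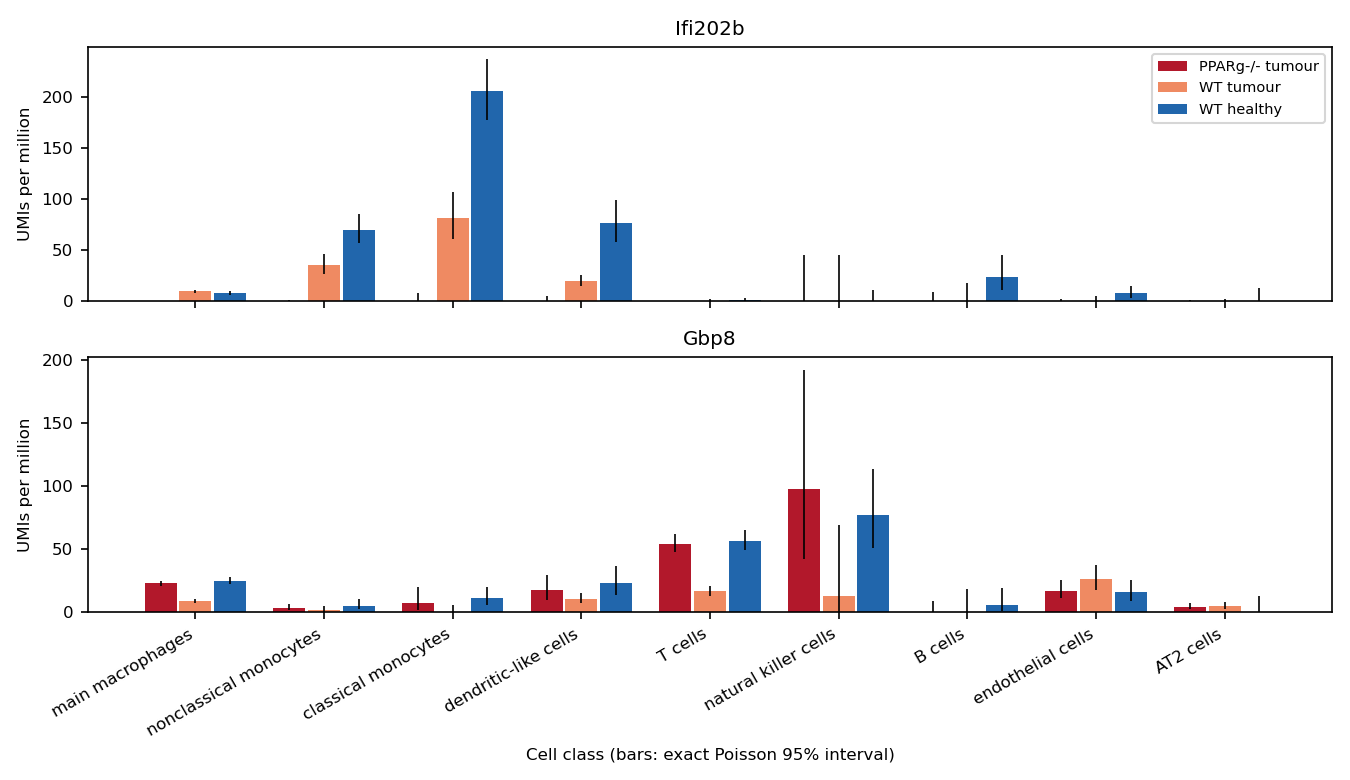
CPM of Ifi202b (top) and Gbp8 (bottom) in 9 cell classes, with bars for PPARg-/- tumour, WT tumour and WT healthy and lines for the exact Poisson 95% interval. Ifi202b has no bar in PPARg-/- tumour in any class, and Gbp8 is lowest in WT tumour in main macrophages, T cells and natural killer cells.

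Of 81 further interferon pathway genes, 78 had a row. Ifng, the gene of interferon-gamma, had 143 UMIs in 66 cells of PPARg-/- tumour, against 94 UMIs in 60 cells of WT tumour, with 196 UMIs in 74 cells of WT healthy. Main macrophages had 1 UMI of Ifng in each library. Outside the 1 WT tumour cell named above, Ifnb1 had 1 UMI in all, in WT healthy, and the 4 interferon-alpha genes with a row had none. The receptors lay on the higher side in main macrophages of the library labelled PPARg-/-. Ifngr1 had 191 CPM in PPARg-/- tumour lungs, against 89.7 CPM in WT tumour (1.09, 1.00 to 1.18), and Ifnar2 had 121 CPM in PPARg-/- tumour lungs, against 57.4 CPM in WT tumour (1.07, 0.96 to 1.19). Ifnar1 and Ifngr2 did not pass the rule, with log2 ratios of 0.53 and 0.56. Socs3, a feedback inhibitor of cytokine signalling, had 29.3 CPM in PPARg-/- tumour lungs, against 12.2 CPM in WT tumour (1.27, 1.02 to 1.52), and of 12 nucleic acid sensors and IRF factors 4 were lower and 2 higher, beside 18.4% lower and 14.9% higher among all genes tested.

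Among all 59 of these pathway genes tested in main macrophages between the tumour libraries, 13 were higher in PPARg-/- tumour and 12 lower, beside 14.9% and 18.4% of all genes tested, so that the lower count is close to that of all genes. Oas2, an enzyme that activates RNase L, had 14 UMIs in PPARg-/- tumour lungs, against 75 UMIs in WT tumour (-2.86, -3.80 to -2.02), and Ifit1bl1, Oas3 and Ciita followed it on the lower side. Cxcl10, a chemokine that draws T cells, had 66 UMIs in PPARg-/- tumour lungs, against 15 UMIs in WT tumour (1.70, 0.88 to 2.62). Slfn5 and Ifi203 followed on the higher side, with log2 ratios of 1.35 and 1.26. Between WT tumour and WT healthy, 19 of 59 were higher and 4 lower, beside 7.39% and 15.6% of all genes tested. Other type I-like targets made up 14 of the 19, with Cmpk2, Oas2, Oas3 and Ifit1bl1 at log2 ratios from 3.17 to 4.00. Cxcl10 went against them, with 15 UMIs in WT tumour lungs, against 150 UMIs in WT healthy (-3.61, -4.48 to -2.84). In T cells, 0 of 61 were higher and 6 lower in PPARg-/- tumour than in WT tumour, beside 1.77% and 4.92% of all genes tested. Between WT tumour and WT healthy, 9 of 60 were higher and 2 lower in T cells, beside 7.59% and 4.36% of all genes tested.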

How the data were processed

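Single-cell 3' RNA matrices of UMI counts per gene and barcode were used as deposited, 1 per library. Per the submitters' processing notes, the authors used Cell Ranger 6.0.1, Seurat 4.0.1 and mm10, whereas the file headers name Cell Ranger 4. The labels give a 3' v2 kit, and the deposited barcode lists hold 6794880 entries each. No replicates exist, since each library pools 3 mice. The 35 genes and all lists were chosen with earlier results of these data known, and the definition of main macrophages (the largest cluster of non-cycling macrophages in a library) was chosen after the clusters were seen. Genes were named where past the rule in main macrophages, nonclassical monocytes or T cells or among those with most UMIs of a list in a class, with at most the 4 highest and 4 lowest further pathway genes and always Ifng and the interferon receptors. One further pathway gene is not reported here. Genes named in classical monocytes, endothelial cells and cluster 8 were added after their values were seen.

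Barcodes with at least 1000 UMIs, 500 genes and at most 10% mitochondrial UMIs were kept. Doublets were called per library with scrublet in scanpy 1.11.5 at an expected rate of 6% and removed (151 in PPARg-/- tumour, 114 in WT tumour and 75 in WT healthy). Cells were clustered together (2000 variable genes without interferon genes, 30 components, 15 neighbours, leidenalg 0.10.2 at resolution 1.0) into 25 clusters, and a cluster was named where at least 3 markers of a type were 4-fold raised. UMIs were summed per class and library and divided by all UMIs of the class (CPM). Levels have exact Poisson intervals and ratios exact conditional binomial intervals, with scipy 1.17.1. Free RNA was not subtracted. Intervals cover counting error only and not the spread between mice. The scripts were tested on simulated data. Alternatives covered barcode limits, clustering, grouping of macrophages, the fold and count minimum, cell weights, thinning, free RNA subtraction and the removal of the highest cells.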

Additional observations from a re-analysis of the deposited data

How the results depend on the processing

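No paired analysis was possible because each group has 1 library. The counts, sums and shares that answer a comparison were recomputed under each alternative. Of these values, 33 counts or shares moved, 8 sums no longer passed the rule and 1 sum past the rule turned round. The other 196 were classed as unchanged, although some counts shifted and sums short of the rule could change sign. For PPARg-/- tumour over WT tumour, the type II-like sum ran from -0.16 to 0.52 in main macrophages. In nonclassical monocytes it ran from -0.18 to 0.11. For WT tumour over WT healthy, it ran from -0.086 to 0.29 in main macrophages. The type I-like sum of that comparison ran from -0.51 to 0.12 in nonclassical monocytes. Among the alternatives, the share of all genes called was recomputed for cluster 8 only. The causes of these changes were not tested.

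With a mitochondrial limit of 5%, 6 genes were lower in main macrophages of PPARg-/- tumour over WT tumour, the type I-like sum was at -0.47 and Ifit2 (0.53), Ifit3 (1.03) and Ifi209 (-0.057) turned round, and 10 were higher in WT tumour over WT healthy. With each library clustered alone, 5 were lower in PPARg-/- tumour (sum -0.52), Ifitm3 of WT tumour over WT healthy was at 0.11, 1 gene was higher in nonclassical monocytes and Ifi207 in T cells was at 1.82. At 2-fold, 6 were lower in PPARg-/- tumour. Iigp1 was at -0.64 with 2000 UMIs per barcode and at -0.72 at Leiden resolution 2.0. The lower genes in main macrophages of WT tumour over WT healthy numbered 1 at that resolution, with libraries alone, with interferon genes allowed, at 2-fold, with equal cell weights, after thinning and without the top cell of each gene. Over all macrophage and monocyte clusters, the type I-like sum was at -0.57 for PPARg-/- tumour over WT tumour and 0.30 for WT tumour over WT healthy, where 5 genes were higher and 7 lower and Oasl2 (-0.045), Usp18 (-0.39), Irf7 (-0.59), Ifi202b (-0.75), Ifi206 (-0.72) and Ifi27l2a (-0.23) turned round.

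Thinned to 1000 UMIs in a second draw, 3 genes were lower in PPARg-/- tumour (sum -0.55, Ifit3 1.29), 2 were higher in WT tumour over WT healthy, and Rtp4 (-0.40), Iigp1 (-0.075), Ifitm3 (0.095), Ifi204 in T cells (-0.073) and, in nonclassical monocytes, Ifit2 (-0.16) and Irgm1 (0.14) turned round. Then 1.39% of PPARg-/- cells, 2.76% of WT tumour cells and 1.23% of WT healthy cells held 50% of the type I-like UMIs, and 6.59%, 6.36% and 6.03% held 50% of the type II-like UMIs. In nonclassical monocytes of PPARg-/- tumour over WT tumour, 4 genes were lower with interferon genes allowed (sum -0.47), after thinning (0 higher) and without the 10 highest cells (sum -0.41), 5 at 50 UMIs, and at 2-fold 0 were higher. Without the top cell that sum was at -0.53. For WT tumour over WT healthy there, 0 genes were higher with interferon genes allowed, after thinning and without the top cell or the 10 highest cells, 1 was lower at 2-fold, and Ifit2 was at -1.14, -0.23 and -0.59 and Rsad2 at -0.91, -0.80 and -1.01 with interferon genes allowed, without the top cell and without the 10 highest cells, the last with Ifit1 at -0.27. In the PPARg-/- cells of cluster 8, 1 gene was lower and the type I-like sum (0.61), Isg15 (0.77), Ifit2 (0.89), Ifit3 (0.84), Rtp4 (0.80), Irf7 (1.5), Ifi207 (0.34), Ifi209 (-0.71) and Ifi27l2a (0.18) turned round. The cluster 8 setting and that without the 10 highest cells were added after the data were seen.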
